A study of Rattus norvegicus with 96 samples.

Results

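The genes described here are Amy1, Pnlip, Slc3a1, Cyp2j10 and Nat8f3, 5 of the 14217 genes measured in the central nucleus of the amygdala of alcohol-preferring and non-preferring rats. They were chosen by the size of the difference in their log2 levels between the lines of a pair in these same arrays: Amy1, Cyp2j10 and Nat8f3 between HAD1 and LAD1, and Pnlip and Slc3a1 between HAD2 and LAD2. The values in those 2 pairs are therefore a description and carry no test, and tests were read only in the other 3 pairs. Each gene was measured by 1 probe set that carried its symbol alone (Amy1 1370359_at, Pnlip 1368554_at, Slc3a1 1368440_at, Cyp2j10 1396327_at, Nat8f3 1370991_at).

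The series holds 96 arrays, 1 per animal, of a nucleus of the forebrain that takes part in fear, stress and alcohol drinking. The animals belonged to 5 pairs of lines that were selectively bred on alcohol preference: HAD1 (n = 9) and LAD1 (n = 10), HAD2 and LAD2 (n = 10 each), P and NP (n = 10 each), AA and ANA (n = 10 each), and sP (n = 8) and sNP (n = 9). The preferring line is named first in each pair. The labels name no allele, agent or treatment and give neither age nor alcohol exposure. A group is a line whose animals share descent, so selection itself was replicated over pairs and not over animals. HAD1 and HAD2 are replicate selections for high alcohol drinking, and LAD1 and LAD2 are their low-drinking counterparts.

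The 5 proteins are best known outside the brain. Amy1 encodes an alpha-amylase of the salivary type, which cuts the glucose chains of starch and glycogen. Pnlip encodes pancreatic triglyceride lipase, which works on dietary fat with the help of colipase. Slc3a1 encodes rBAT, the heavy subunit that brings the transporter Slc7a9 to the membrane of kidney and intestinal cells, where the pair takes up cystine and dibasic amino acids. Cyp2j10 belongs to the CYP2J cytochrome P450 enzymes, a family that oxidises arachidonic acid to epoxides. Nat8f3 is a member of the Nat8 family of acetyltransferases, whose namesake Nat8 carries out the last step of mercapturate synthesis, a route by which cells clear glutathione conjugates.

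The RefSeq sequence of the 250 bases before the annotated start (GRCr8) is shown for the 3 digestive or absorptive genes, because these windows held a match to a TATA box, a core promoter element. The windows lie at chr2:204085911-204086160 for Amy1 (minus strand), chr1:267784360-267784609 for Pnlip (plus strand) and chr6:15394750-15394999 for Slc3a1 (minus strand), and each is written 5' to 3' on the strand of its gene. Capitals mark matches to TATAAA or TGANTCA (the AP-1 site) on either strand.
Amy1: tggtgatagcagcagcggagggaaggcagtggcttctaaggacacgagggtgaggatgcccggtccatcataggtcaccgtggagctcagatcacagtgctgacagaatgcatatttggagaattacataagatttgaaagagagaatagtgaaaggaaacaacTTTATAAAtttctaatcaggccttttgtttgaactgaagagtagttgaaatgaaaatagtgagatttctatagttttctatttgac
Pnlip: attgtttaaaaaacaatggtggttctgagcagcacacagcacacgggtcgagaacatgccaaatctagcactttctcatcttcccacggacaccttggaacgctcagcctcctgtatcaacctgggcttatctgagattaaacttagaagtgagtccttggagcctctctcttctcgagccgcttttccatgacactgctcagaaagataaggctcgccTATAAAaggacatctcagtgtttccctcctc
Slc3a1: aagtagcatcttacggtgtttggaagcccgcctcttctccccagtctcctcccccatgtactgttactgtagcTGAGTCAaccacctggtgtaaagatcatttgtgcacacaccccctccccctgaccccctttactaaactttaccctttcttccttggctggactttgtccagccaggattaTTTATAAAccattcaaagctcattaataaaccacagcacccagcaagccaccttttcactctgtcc
The Pnlip window has TATAAA at 31 bases before the start. The Amy1 window has overlapping matches on both strands at 86 and 84 bases before the start, and the Slc3a1 window at 66 and 64. Among all 33469 promoter windows of this length in the table, 12.9% held TATAAA, 6.34% held TGANTCA and 6.45% held GTTAAT, a part of the HNF1 site. TGANTCA matched once, in the Slc3a1 window at 177 bases before the start, and GTTAAT did not match in any of the 5 windows. The windows of Cyp2j10 (chr5:116110810-116111059) and Nat8f3 (chr4:119803477-119803726), both on the minus strand, held none of the 3 motifs. A match is a description of these letters only.

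Some arrays carried properties that touch the results below. On a score from 100 probe sets that best separate a pair, computed without the array in question and without the probe sets of the 5 genes, 15 of 96 arrays lay on the side of the other line on both odd-numbered and even-numbered chromosomes. These were HAD1 28, LAD1 37, P 1, P 9, NP 1, NP 9, AA 15, AA 17, AA 19, ANA 16, ANA 18, sP 2, sP 9, sNP 8 and sNP 9, and HAD2 and LAD2 had 0. The score has its midpoint at 0, with 1 and -1 as the medians of the preferring and the other line. ANA 18 lay close to the midpoint, at 0.07 and 0.04, and NP 1 at 0.49 and 0.30. Results are given as labelled and also without these arrays, which raises differences by construction. Probe sets of genes outside the 5 could enter the score, and those of the 5 genes could not. For all genes the arrays were left out by expression in these same data. Every adjusted p without these arrays, also of the 5 genes, is therefore a description and not a separate test. Hepatocyte markers were high on 4 arrays: the mean log2 level of 10 markers was 8.32 on LAD2 14, 8.13 on LAD2 15, 8.08 on LAD2 16 and 7.16 on HAD1 23, against 5.32 to 6.21 on the other 92. LAD1 36 is called HAD1 in its source name and LAD1 in its title. Its scores of -0.75 and -0.95 lay on the LAD1 side. The arrays sP 2 and sNP 2 were nearly identical (SD of their differences 0.09 log2 units, next closest arrays 0.16). The log2 ratio of 3' to 5' GAPDH probe sets, a sign of RNA quality, averaged 3.33 to 4.09 in the HAD and LAD lines and 0.20 to 0.43 in the other 6. Where levels are compared between these sets of lines, line pair and RNA quality cannot be told apart. Central amygdala markers were present, with Gad1 at 14.2 to 14.5 as line means and Penk at 12.75 to 14.49, while Calcrl (5.47 to 6.07) was low, and Dlk1 (6.06 to 8.98) and Crh (6.75 to 9.89) ran from below to above the array medians of 7.77 to 8.02.

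Amylase had the widest split of the 5 genes. All but 1 HAD1 arrays had a high Amy1 level and all but 1 LAD1 arrays a low one. On the log2 scale of the deposited values, HAD1 arrays lay at 5.06 at the lowest, 9.18 at the median and 9.71 at the highest, and LAD1 arrays at 4.84, 5.11 and 9.09. The low HAD1 value was that of HAD1 28 and the high LAD1 value that of LAD1 37, both of which lay on the other line's side by the rest of their expression. No array of the pair had a value between 5.34 and 8.19, a gap of 2.84 log2 units. A gap this wide, with at least 3 arrays on each side, was found for 6 of 31042 probe sets in this pair (0.0193%). The mean was 8.69 ± 1.44 (SD, n = 9) in HAD1 and 5.49 ± 1.3 (n = 10) in LAD1, a difference of 3.21 (SE 0.54) or 9.24-fold. Without HAD1 28 and LAD1 37 the HAD1 mean was 9.15 ± 0.48 (n = 8), the LAD1 mean 5.09 ± 0.17 (n = 9) and the ratio 16.7-fold, with no overlap; the same held for 0.731% of all probe sets of these 17 arrays. Without HAD1 23, the HAD1 array with liver markers, the difference was 3.12.

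**Figure D1:**
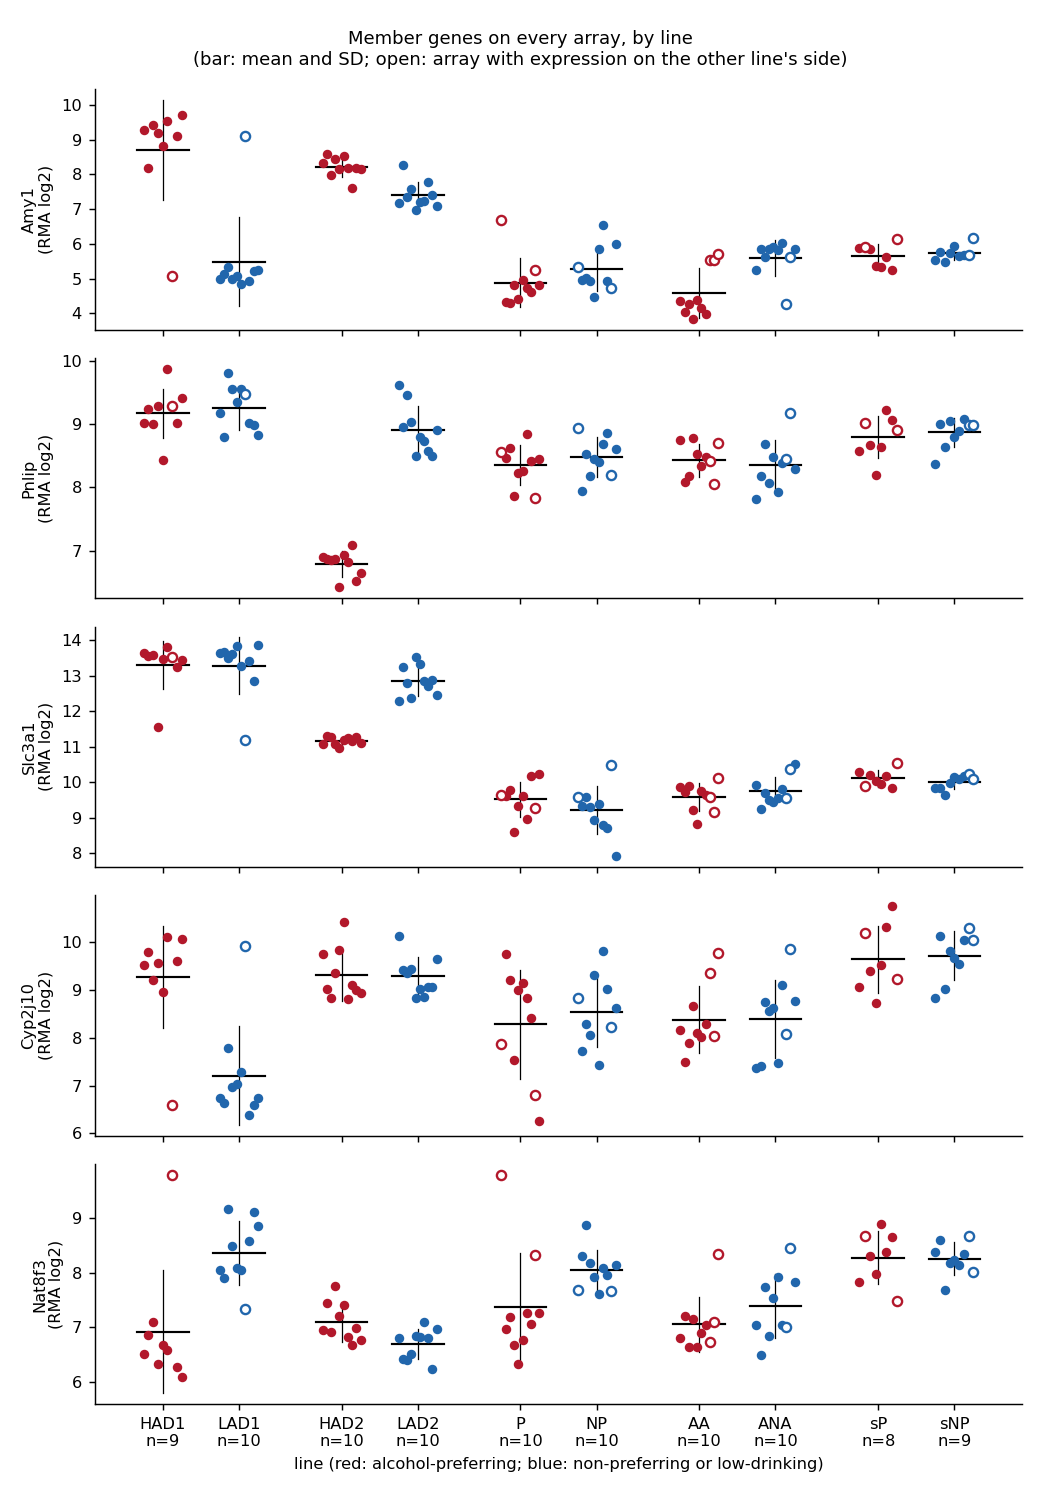
RMA log2 level of each of the 5 genes (rows) on every array (points), by line (columns); bars are the line mean and SD, red is the preferring line, and open points are the 15 arrays on the other line's side. Amy1 falls into a high and a low cluster in HAD1 and LAD1, and Pnlip and Slc3a1 are lower on all HAD2 arrays than on any LAD2 array.

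In HAD2 and LAD2 the Amy1 level was high in both lines. HAD2 arrays lay between 7.60 and 8.58 with a median of 8.17, and LAD2 arrays between 6.97 and 8.27 with a median of 7.28. The ranges overlapped, through LAD2 12 at 8.27, LAD2 18 at 7.78 and HAD2 8 at 7.60. The HAD2 mean of 8.21 ± 0.29 exceeded the LAD2 mean of 7.40 ± 0.39 (SD, n = 10 each) by 0.81 (SE 0.14) or 1.75-fold, and by 0.74 without the 3 LAD2 arrays with liver markers. The LAD2 mean was nearer to that of HAD1 than to that of LAD1.

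AA and ANA rats showed a smaller split of Amy1 in the other direction, with the preferring line lower. AA arrays lay at 3.84 at the lowest, 4.31 at the median and 5.70 at the highest, and ANA arrays at 4.27, 5.83 and 6.03. Again the arrays formed 2 clusters with nothing between 4.37 and 5.25, a gap that 138 probe sets matched (0.445%). The upper cluster held 9 of 10 ANA arrays and also AA 15, AA 17 and AA 19, at 5.53, 5.53 and 5.70, and the lower cluster held the other 7 AA arrays and ANA 16. Each of these 4 exceptions is among the arrays on the other line's side. ANA 18, the fifth such array of the pair, stayed in the upper cluster at 5.61, but its scores of 0.07 and 0.04 lay near the midpoint. The AA mean was 4.58 ± 0.72 and the ANA mean 5.60 ± 0.52 (SD, n = 10 each), a difference of -1.03 (SE 0.25), with 9 of 10 AA arrays below the ANA mean. This did not pass the test over all probe sets (limma, Benjamini-Hochberg adjusted p = 0.5016, unadjusted p = 5.34e-04). Without the 5 arrays the difference was -1.63 or 3.09-fold (limma adjusted p = 3.90e-08), in a fit that called 1.8% of all probe sets against 0.0% with all arrays. The lines then did not overlap, as was the case for 0.931% of all probe sets. The 7 AA arrays left, at 3.84 to 4.37, lay near the lowest value of the data, 3.68. Their level may be background, so the fold is uncertain.

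In P and NP rats the Amy1 level was low and uneven. P arrays had a median of 4.77 and reached 6.67 on P 1, and NP arrays had a median of 4.99 and reached 6.55 on NP 7 and 6.0 on NP 10. The difference of means was -0.39 (SE 0.28, limma adjusted p = 1.0), and -0.72 without the 4 arrays on the other side (limma adjusted p = 0.2178). In sP and sNP rats the lines overlapped throughout, at 5.25 to 6.14 and 5.47 to 6.16, with a difference of -0.07 whose interval (2 SE) ran from -0.31 to 0.18. None of the 5 genes passed the test in P and NP, AA and ANA or sP and sNP with all arrays, in pairs where limma called 0.0% of all probe sets and 1523, 1528 and 1341 probe sets had an unadjusted p under 0.05. At that unadjusted level were Nat8f3 in P and NP and Amy1 in AA and ANA. Without the arrays on the other side, Nat8f3 passed in P and NP, Amy1 in AA and ANA, and 0 of 5 in sP and sNP, where 1.62%, 1.8% and 1.75% of all probe sets were called, in that order. As leaving out these arrays raises differences by construction, this is a description and not a separate test.

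A probe set shared by Amy1 and Amy2a3, the pancreatic amylase, followed Amy1. It differed by 3.34 (SE 0.56) between HAD1 and LAD1, or 10.1-fold, and by -1.29 between AA and ANA (limma adjusted p = 0.5016; -2.02 with adjusted p = 1.85e-08 without the arrays on the other side). HAD1 28 was again low at 5.15 and LAD1 37 high at 9.32. The probe set of Amy2a3 alone stayed between 3.89 and 4.58 on all arrays, with differences of -0.03 to 0.03 in the 5 pairs and none past the test. In HAD2 and LAD2 the shared probe set and Amy1 differed on the 3 liver-marker arrays. LAD2 14, 15 and 16 read 8.78, 9.44 and 9.52 on the shared probe set, above the 7.39 to 8.61 of the other LAD2 arrays. Their Amy1 values of 7.59, 6.97 and 7.21 were not above the 7.08 to 8.27 of the other LAD2 arrays, and LAD2 15 lay below them. The shared probe set differed by 0.25 between HAD2 and LAD2 with all arrays and by 0.67 without those 3.

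**Figure D2:**
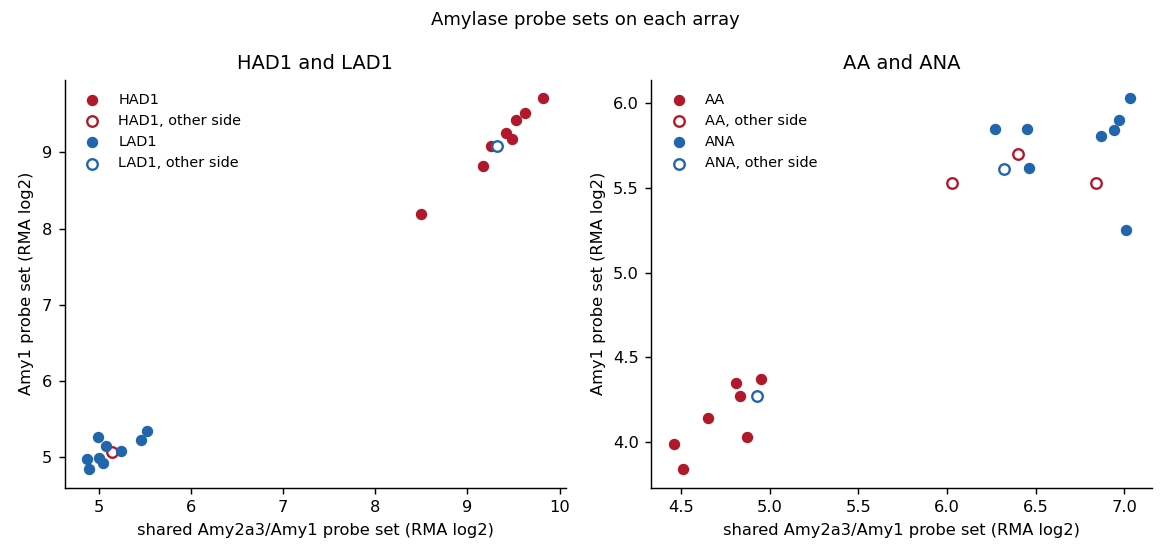
Amy1 probe set (vertical axis) against the probe set shared by Amy2a3 and Amy1 (horizontal axis), RMA log2, 1 point per array, for HAD1 and LAD1 (left) and AA and ANA (right); open points are arrays on the other line's side. Both probe sets split the arrays of each pair into the same 2 clusters, and the 2 open points on the left sit in the cluster of the other line.

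The lipase Pnlip set HAD2 apart from LAD2 and from the rest of the series. HAD2 arrays had values of 6.90, 6.87, 6.85, 6.87, 6.42, 6.94, 6.83, 7.09, 6.52 and 6.65. LAD2 arrays had values of 9.61, 8.95, 9.45, 9.03, 8.49, 8.80, 8.73, 8.58, 8.50 and 8.91. Every HAD2 array was below every LAD2 array, with 1.4 log2 units between the nearest values; 0.86% of all probe sets separated these lines without overlap. The HAD2 mean of 6.79 ± 0.20 lay below the LAD2 mean of 8.91 ± 0.38 (SD, n = 10 each) by a factor of 4.32 (log2 difference -2.11, SE 0.13), and by 4.49 without the liver-marker arrays. Microglial markers, which correlated with Pnlip within lines (r = 0.52 over 96 arrays), had a median difference of -0.24 in this pair, with Cx3cr1 at -0.30 (limma adjusted p = 0.0033) and P2ry12 at 0.64 (4.62e-06) among 8. Astrocyte markers, at r = 0.57 with Pnlip, had a median of 0.04 and 1 of 6 passed (Gjb6 at 0.28, limma adjusted p = 0.0131). Endothelial and pericyte markers, at r = 0.49, had a median of 0.00 and 3 of 8 passed (Tek at -0.28, Abcb1a at 0.66 and Rgs5 at 0.42, limma adjusted p = 0.0235, 0.0093 and 0.0096), in a pair where 4.09% of all probe sets were called. Without the liver-marker arrays, where 2.75% were called, Gjb6 (0.0970), Abcb1a (0.0550) and Rgs5 (0.0865) no longer passed. The part of these cell types in the Pnlip difference was not tested.

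In the other 4 pairs the Pnlip ranges of the lines overlapped. Line means lay between 8.35 in P and ANA and 9.25 in LAD1, all with overlapping ranges between neighbours in the order LAD1, HAD1, LAD2, sNP, sP, NP, AA, P and ANA, and HAD2 followed 1.56 below ANA with no overlap. The differences were -0.08 for HAD1 and LAD1, -0.13 for P and NP, 0.08 for AA and ANA and -0.08 for sP and sNP, with intervals (2 SE) between -0.39 and 0.37. The limma adjusted p was 1.0, 0.9832 and 0.9998 in the 3 pairs that were tested. The related lipases Pnliprp1 and Pnliprp2, its neighbours on the chromosome, differed by -0.07 (limma adjusted p = 0.5147) and 0.02 (0.9123) between HAD2 and LAD2.

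Slc3a1 was the second gene that separated HAD2 from LAD2. HAD2 arrays lay within a narrow band, at 11.08, 11.31, 11.27, 11.08, 10.96, 11.19, 11.25, 11.16, 11.29 and 11.11. LAD2 arrays lay at 12.28, 13.24, 12.79, 12.38, 13.53, 13.34, 12.84, 12.70, 12.88 and 12.45. The highest HAD2 value was 0.97 log2 units below the lowest LAD2 value. Of all probe sets, 0.86% separated these lines without overlap, and 88 (0.283%) had a gap this wide in this pair. The mean of 11.17 ± 0.11 in HAD2 was 1.67 lower (SE 0.12) than the 12.84 ± 0.42 of LAD2 (SD, n = 10 each), or 3.19-fold, and 2.97-fold without the liver-marker arrays.

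HAD1 and LAD1 arrays were high in Slc3a1 except for 1 animal in each line. HAD1 24 read 11.57 where the other HAD1 arrays read 13.25 to 13.81, and LAD1 37 read 11.19 where the others read 12.86 to 13.87. HAD1 24 lay on the HAD1 side by its score and LAD1 37 on the HAD1 side too. The line means of 13.31 ± 0.67 and 13.29 ± 0.79 differed by 0.03 (interval from -0.57 to 0.62). In the other 3 pairs the level lay between 9.21 ± 0.68 in NP and 10.11 ± 0.24 in sP. The differences there were 0.31 in P and NP (limma adjusted p = 1.0), -0.18 in AA and ANA (0.9832) and 0.11 in sP and sNP (0.9998). The lower level of these 3 pairs than of the HAD and LAD lines went along with the lower 3' to 5' ratio of GAPDH, and line pair and RNA quality cannot be told apart here; within lines the correlation of Slc3a1 with that ratio was -0.10 over 96 arrays.

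Neither Slc7a9 nor Slc3a2 passed the test. Slc7a9, the light subunit of Slc3a1 in the kidney, lay between 4.41 and 5.20 as a line mean and differed by 0.00 between HAD2 and LAD2 (limma adjusted p = 0.9953). Slc3a2, the other heavy subunit of this transporter family, differed by -0.04 (0.6390). Of 16 measured genes of 17 in a list of amino acid transporters and partners, 2 fell in HAD2, where 4.09% of all probe sets were called: Slc7a1, a carrier of cationic amino acids, by 0.22 (limma adjusted p = 0.0025), and Slc7a11, the cystine-glutamate exchanger, by 0.32 (0.0293; 0.0618 without the liver-marker arrays). The list's median difference was -0.05 against 0.00 over all genes, and 0 of 16 passed in each of the other 4 pairs (0 to 1 at an unadjusted p under 0.05 in limma). Prepl, which overlaps Slc3a1 by 1789 bases in the reference, differed by 0.08 (limma adjusted p = 0.5494).

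Cyp2j10 split HAD1 from LAD1 along the same arrays as amylase. HAD1 arrays read 9.53, 9.79, 9.22, 9.56, 8.97, 10.12, 6.60, 9.61 and 10.07, where 6.60 is HAD1 28. LAD1 arrays read 6.73, 6.63, 7.79, 6.97, 7.04, 7.29, 9.92, 6.39, 6.60 and 6.74, where 9.92 is LAD1 37. All other HAD1 arrays were above all other LAD1 arrays (0.731% of all probe sets separated them in this way), and the gap between 7.79 and 8.97 was matched by 38 probe sets (0.122%). The mean was 9.28 ± 1.07 (SD, n = 9) in HAD1 and 7.21 ± 1.03 (n = 10) in LAD1, a difference of 2.07 (SE 0.42) or 4.19-fold, and 6.50-fold without those 2 arrays. Endothelial and pericyte markers, at r = 0.39 with Cyp2j10 within lines, had a median of -0.04 in this pair and 1 of 8 passed (Abcb1a at -0.67, limma adjusted p = 0.0403; 0.0918 without HAD1 23), and 2 of 8 without HAD1 28 and LAD1 37 (Abcb1a at -0.86 and Tek at 0.49); their part in the Cyp2j10 difference was not tested. The Cyp2j10 level of LAD1 was the lowest of the 10 lines, 1.07 below that of P, whose range of 6.26 to 9.75 overlapped it.

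In the other pairs Cyp2j10 varied more within lines than between them. HAD2 and LAD2 differed by 0.02 (interval from -0.36 to 0.40), P and NP by -0.25 (limma adjusted p = 1.0), AA and ANA by -0.02 (0.9969) and sP and sNP by -0.06 (0.9998). The spread was widest in P, with an SD of 1.14 over 10 arrays and the lowest values on P 10 (6.26), P 9 (6.81) and P 4 (7.53). The order of line means ran from sNP (9.72) and sP (9.65) through HAD2, LAD2 and HAD1 (9.31 to 9.28) to NP, ANA, AA and P (8.54 to 8.28) and LAD1, and every neighbouring range overlapped.

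Relatives of Cyp2j10 passed the test in HAD2, and none did in HAD1. Between HAD1 and LAD1, Cyp2j4 differed by -0.16 (limma adjusted p = 0.6116) and the brighter Cyp2j3 probe set by 0.04 (0.9415). Between HAD2 and LAD2, Cyp2j4 was higher by 0.31 (0.0474; 0.1051 without the liver-marker arrays), and 1 of 2 Cyp2j3 probe sets by 0.46 (0.0134) while the brighter one was at 0.15 (0.4101). A list of cytochrome P450 enzymes and epoxide hydrolases had 43 measured genes of 55. Of these, 3 passed as higher in HAD2 and 0 as lower, where 4.09% of all probe sets were called. Passing or not, 14 of 43 were higher in HAD2, and the lowest difference was -0.95. At an unadjusted p under 0.05 in limma there were 16 of 43 in either direction, against 5079 of 31042 probe sets. Beside Cyp2j4, the genes past the adjusted test were Ephx1 by 0.50 (limma adjusted p = 4.02e-04) and Ephx2 by 0.53 (0.0305), the microsomal and the soluble hydrolase of epoxides. Ephx1 alone passed without the liver-marker arrays (limma adjusted p = 0.0013, against 0.1091 for Ephx2). The median of the list was -0.07 in HAD2 against 0.00 over all genes. In HAD1, where 0.963% of all probe sets were called, 0 of 43 passed in limma (3 at an unadjusted p under 0.05), with a median of 0.01. Without the arrays on the other side, Cyp4v3, a fatty acid hydroxylase, passed in sP and sNP (0.63, limma adjusted p = 4.72e-05), where 1.75% of all probe sets were called.

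Nat8f3 ran opposite to Amy1 and Cyp2j10 in HAD1 and LAD1. HAD1 arrays read 6.52, 6.86, 7.10, 6.34, 6.68, 6.59, 9.78, 6.28 and 6.09, with HAD1 28 the highest of the pair. LAD1 arrays read 8.05, 7.9, 9.16, 8.49, 8.09, 8.04, 7.34, 8.57, 9.11 and 8.85, with LAD1 37 the lowest. The remaining arrays of the 2 lines did not overlap (0.731% of all probe sets), with HAD1 up to 7.10 and LAD1 from 7.9. The mean was 6.92 ± 1.12 (SD, n = 9) in HAD1 and 8.36 ± 0.58 (n = 10) in LAD1, a difference of -1.44 (SE 0.35) or 2.72-fold, and 3.77-fold without HAD1 28 and LAD1 37. Microglial markers, at r = 0.34 with Nat8f3 within lines (0.11 without the arrays on the other side), were lower in HAD1 for 8 of 8 genes with a median of -0.30. At an unadjusted p under 0.05 in limma there were 6 of 8, against 3426 of 31042 probe sets. After adjustment 2 passed, where 0.963% of all probe sets were called, and 0.512% without HAD1 23. These were Cx3cr1 at -0.40 (limma adjusted p = 0.0348, and 0.0653 without HAD1 23) and C1qc at -0.48 (0.0266 and 0.0452). Without HAD1 28 and LAD1 37, where 2.56% were called, the limma adjusted p was 0.0023 for Cx3cr1, 0.0153 for C1qa and 0.0063 for C1qc. The part of these markers in the Nat8f3 difference was not tested. The HAD2 level of 7.09 ± 0.35 exceeded the LAD2 level of 6.70 ± 0.28 by 0.40 (SE 0.13), so the 2 HAD and LAD pairs had opposite signs; this contrast of pairs was not tested.

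P rats had the lower Nat8f3 level in their pair. P arrays lay at 6.34 at the lowest, 7.13 at the median and 9.78 at the highest, and NP arrays at 7.61, 8.03 and 8.86. The arrays P 1 and P 9 were the 2 P arrays above the gap from 7.27 to 7.61; all other P arrays were below every NP array, and without NP 1 and NP 9 as well 0.731% of all probe sets separated the lines. The difference was -0.67 (SE 0.31), which did not pass (limma adjusted p = 0.9842, unadjusted p = 0.0415). Without P 1, P 9, NP 1 and NP 9 it was -1.18 or 2.27-fold (limma adjusted p = 3.17e-04), in a fit that called 1.62% of probe sets. Choroid plexus markers were higher in P for 6 of 6 genes with 0 called in limma and a median of 0.35; their mean reached 10.94 on 1 P array against at most 7.58 in NP, and their part in this result was not tested. AA and ANA differed by -0.34 (limma adjusted p = 0.9832) and sP and sNP by 0.02 (0.9998).

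None of the other Nat8 genes passed the test between HAD1 and LAD1 with all arrays. Nat8f1, a close relative and neighbour of Nat8f3, differed by -0.56 (limma adjusted p = 0.0817), and by -0.63 without the arrays on the other side (0.0353), where 2.56% of all probe sets were called. Nat8 differed by 0.02, Nat8b by 0.16, Nat8f5 by -0.07 and Nat8l, which makes N-acetylaspartate in neurons, by -0.09, with none past the test. Of 19 measured genes of 23 in a list of N-acetyltransferases and mercapturate enzymes, 0 passed in each of the 5 pairs in limma (0 to 4 at an unadjusted p under 0.05, the most in HAD1), at median differences of -0.06 to 0.00.

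**Figure D3:**
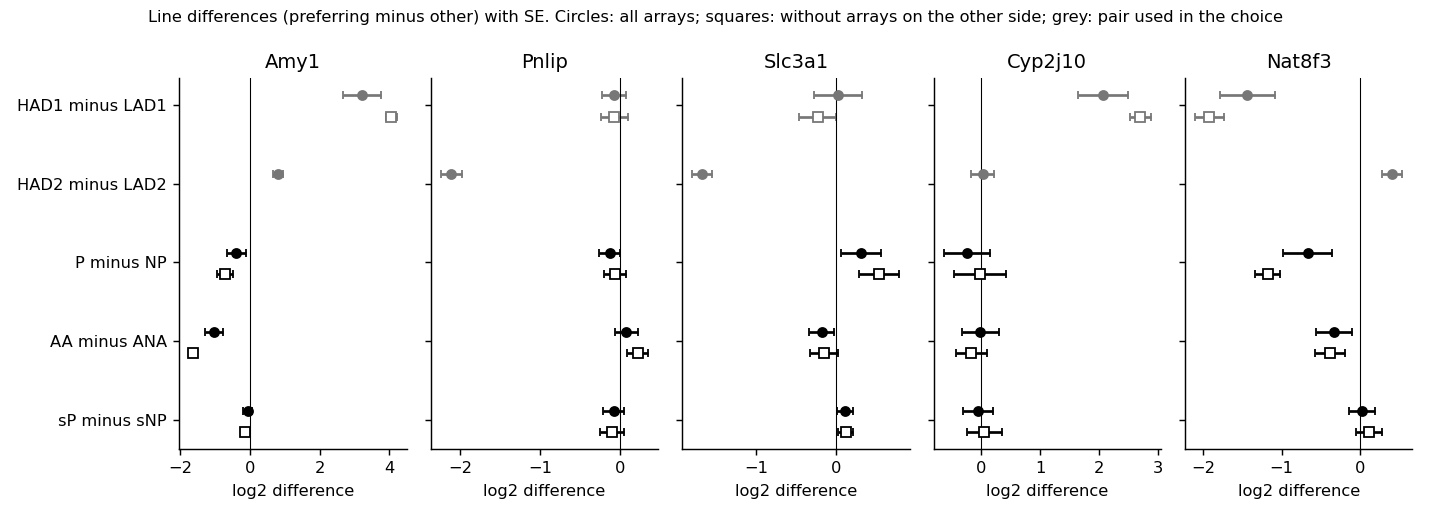
Difference of line means (log2, preferring minus other line) with its SE for the 5 genes in the 5 pairs; circles use all arrays, squares leave out the arrays on the other line's side, and grey marks the 2 pairs in which the genes were chosen. Amy1 is positive in both HAD pairs and negative in AA minus ANA, and Pnlip and Slc3a1 stand away from 0 in HAD2 minus LAD2.

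With all arrays, no other gene of the digestive lists passed the test in any pair, where limma called 0.963% of all probe sets in HAD1, 4.09% in HAD2 and 0.0% in the other 3. Of 26 measured pancreatic digestive enzymes and secretory genes in a list of 33, 0 passed in any pair in limma (0 to 5 at an unadjusted p under 0.05), and their differences stayed between -0.20 and 0.13. Of 10 measured salivary gland genes of 16 and 13 measured neutral lipases of 18, 0 passed in any pair in limma (0 to 1 of each at an unadjusted p under 0.05). Without the arrays on the other side, Lipa, the lysosomal acid lipase, passed in AA and ANA (0.42, limma adjusted p = 0.0154), where 1.8% of all probe sets were called. The 10 markers of pancreatic acinar cells had a mean between 4.99 and 5.70 on every array, and Amy2a3, Pnliprp1 and Slc7a9 stayed low as line means (4.07 to 4.47, 4.57 to 5.42 and 4.41 to 5.20). Kidney and intestinal markers lay between 5.34 and 6.09 on every array, with 0 of 10 past the limma test in each pair (0 to 2 at an unadjusted p under 0.05). Hepatocyte markers were lower in HAD2 than in LAD2 for 10 of 10 genes with 0 called in limma (8 at an unadjusted p under 0.05), at a median of -0.59, which became -0.04 without the 3 arrays that carried them; in that fit, which called 2.75% of all probe sets, Alb (albumin) was higher in HAD2 by 1.07 (limma adjusted p = 1.07e-04).

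A list of conjugating enzymes, with quinone reductases among them, had 37 of 46 genes measured. Of these, 1 of 37 passed in HAD1 and 3 of 37 in HAD2, where 0.963% and 4.09% of all probe sets were called. At an unadjusted p under 0.05 in limma there were 8 and 10 of 37, against 3426 and 5079 of 31042 probe sets. Gsta4, a glutathione transferase that acts on products of lipid peroxidation, fell by 0.90 in HAD1 (limma adjusted p = 0.0051) and by 0.34 in HAD2 (0.0029). In HAD2, Mgst2 fell by 0.51 (0.0010), and Gstt3 rose by 0.46 (0.0468; 0.1988 without the liver-marker arrays). The median of the list was -0.04 in HAD1 and -0.01 in HAD2, against -0.01 and 0.00 over all genes. Without the arrays on the other side, Gsta4 passed in the other 3 pairs as well. It was at 1.01 in P and NP, -0.53 in AA and ANA and 0.78 in sP and sNP (limma adjusted p = 0.0027, 0.0107 and 1.20e-05). The signs thus differed between pairs. Genes of this list could help decide which arrays were left out, so these values are a description. In the same fits, which called 1.62%, 1.8% and 1.75% of all probe sets, 4 other genes of this list passed. Hnmt, the histamine methyltransferase, was lower in AA than in ANA by 1.47 (limma adjusted p = 1.48e-07), a larger difference than any of Gsta4. Gstm4 differed by 0.48 (0.0010) and Gstm5 by -0.28 (0.0154) in that pair, and the quinone reductase Nqo2 by -1.13 (0.0157) in P and NP.

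In the pair in which each of the 5 genes was chosen, its nearest genes on the chromosome gave no difference of its size. The 5 genes were chosen for large differences there, so this contrast was set by the choice. It did not hold in every other pair: in P and NP, Vav3 near Amy1 differed by 0.45 and Amy1 by -0.39. Of the 10 nearest measured genes of each, none passed in limma around Pnlip or Nat8f3 in any pair with all arrays (0 to 1 and 0 to 2 at an unadjusted p under 0.05). The share of all probe sets called was 0.963% in HAD1 and 4.09% in HAD2, against 1 and 4 of the 50 neighbours. Around Cyp2j10, its neighbour Hook1, a linker of vesicles to microtubules, rose in HAD1 by 0.56 (limma adjusted p = 0.0309; 0.0561 without HAD1 23), and Jun, a subunit of AP-1, by 0.32 in HAD2 (0.0419; 0.0846 without the liver-marker arrays), where Cyp2j4 rose as well. Around Slc3a1, Camkmt, a calmodulin methyltransferase, fell in HAD2 by 0.29 (limma adjusted p = 0.0088). Around Amy1, Olfm3 rose in HAD2 by 0.35 (0.0454; 0.3437 without the liver-marker arrays), and in HAD1 all 10 neighbours lay between -0.19 and 0.28 with 0 called in limma (1 at an unadjusted p under 0.05). Without the arrays on the other side, 3 of the 50 neighbours passed in HAD1, where 2.56% of all probe sets were called: Col11a1 near Amy1 (0.27, limma adjusted p = 0.0392), Hook1 (0.69, 1.25e-04) and Nat8f1, given above. In each of the 3 tested pairs 0 of 50 did so in limma (adjusted p). Camkmt alone passed in HAD2 without the liver-marker arrays (0.0499).

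**Figure D4:**
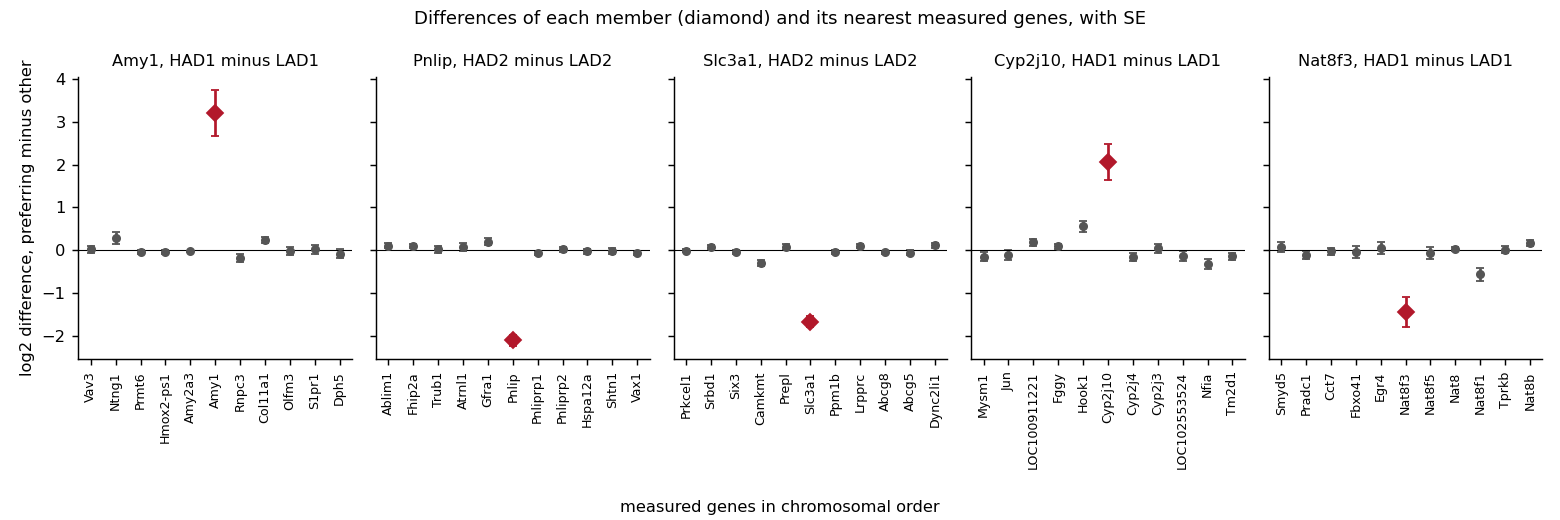
Difference between lines (log2, preferring minus other, with SE) of each of the 5 genes (diamond) and of its 10 nearest measured genes in chromosomal order (dots), in the pair in which the gene was chosen. The neighbours stay between -0.56 and 0.56, while the 5 genes, chosen for large differences in these pairs, lie at 3.21, -2.11, -1.67, 2.07 and -1.44.

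Within lines, Pnlip and Cyp2j10 varied together and with genes of oligodendrocytes, the cells that make myelin. After subtraction of line means, the correlation of Pnlip with Cyp2j10 over 96 arrays was 0.53, and 0.59 over the 81 arrays without those on the other side. The mean of 5 oligodendrocyte markers correlated with Pnlip at 0.64 and with Cyp2j10 at 0.68, against -0.09 to 0.17 for the other 3 genes. Astrocyte markers correlated with both as well (0.57 and 0.54), and central amygdala neuron markers in the opposite sense (-0.43 and -0.38). The arrays share processing and dissection, so these values describe the set and carry no test. Within lines the 3' to 5' ratio of GAPDH correlated with Pnlip at 0.29 and with Cyp2j10 at 0.24. For Amy1, Slc3a1 and Nat8f3 the correlation was 0.19, -0.1 and -0.01. The part of RNA quality in these values was not tested. Fewer cells of a type and less RNA per cell cannot be told apart in such bulk tissue. Between lines, 0 of 5 oligodendrocyte markers passed in any pair in limma, also at an unadjusted p under 0.05. Their median difference was 0.11 in HAD2, where Pnlip differed by -2.11, and -0.01 in HAD1, where Cyp2j10 differed by 2.07. The part of these cells in the Pnlip and Cyp2j10 differences was not tested.

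**Figure D5:**
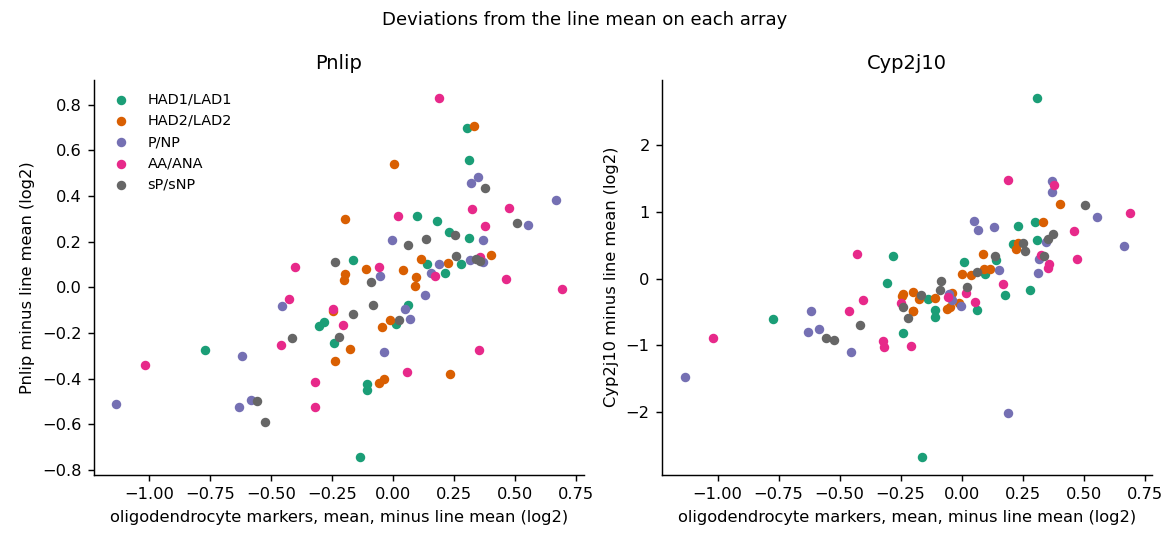
Deviation of Pnlip (left) and Cyp2j10 (right) from the line mean against the deviation of the mean of 5 oligodendrocyte markers, log2, 1 point per array, coloured by line pair. Both genes are higher on arrays with more oligodendrocyte signal, at r = 0.64 and 0.68 over 96 arrays.

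By the same measure, the genes most like Pnlip were Zfp488, a transcription factor of oligodendrocyte maturation (r = 0.77), Pgap2 (0.77) and Ostf1 (0.76), and Dlg3 was the most opposite (-0.75). The genes most like Cyp2j10 were Prr5l, Lpar1, a lysophosphatidic acid receptor, and Tspan2, a tetraspanin of myelin (each 0.73), with Efnb3 the most opposite (-0.69). These values moved by at most 0.04 without the arrays on the other side. Amy1 was closest to Kif15, a mitotic kinesin (0.59), Ypel1 (0.54) and Ufsp2 (0.53) and most opposite to Mis18a (-0.73), but without those arrays the values were -0.04, 0.03, 0.26 and -0.22. Slc3a1 was closest to Clint1 (0.48), Klf12 (0.46) and Kpna1 (0.44) and most opposite to Slfn9 (-0.46); without those arrays the values were 0.43, 0.30, 0.51 and -0.24. Nat8f3 was closest to Shld2 (0.62), Gpr149 (0.55) and Klhdc8a (0.51) and most opposite to Tnc (-0.51), and these became 0.21, 0.41, 0.37 and -0.26. The correlation of Amy1 with Cyp2j10 likewise went from 0.48 to 0.08.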

How the data were processed

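Central amygdala RNA of 96 rats was labelled in 2 cycles from 25 ng of total RNA, per the labels' protocols. The deposited values are log2 levels made by the authors with RMA, per the submitters' processing notes; its version and any build: not given in the sources used here. Without 57 AFFX control probe sets, 31042 remained, of which 20826 carried 1 gene symbol, 436 several and 9780 none. A gene was represented by its brightest 1-symbol probe set. Each line pair was fitted alone with limma 3.58.1 (R 4.3.3, intensity trend, two-sided, threshold 0.05 on p-values adjusted by Benjamini and Hochberg over every probe set; checked on simulated data). Differences are preferring minus other line. Groups came from sample titles. The 5 genes, the lists and the tests were chosen with earlier results of these data known. The text names every member, near relatives, genes called with all arrays of each list (at most 3 per list and pair) and of the 10 nearest genes, and the 3 most and 1 least correlated genes. Leaving out liver-marker arrays was chosen after seeing the data. Values come with no detection calls, so low levels may be background, and precision is limited by how many arrays a line has. A probe set reads only the stretch its probes match. Promoter sequences are RefSeq's (GRCr8), found for 5 of 5 genes. Replicate numbers were not used to pair animals in the main fits, as the sample titles name no pairing. Same-numbered P and NP arrays correlated at -0.11 to 0.50 (median 0.11) and sP and sNP arrays at -0.18 to 0.77 (median 0.09). These values do not settle whether the numbers denote pairs.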

Additional observations from a re-analysis of the deposited data

Results flagged for a closer look

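In 10 of 50 combinations of gene and line, 1 array lay further from the rest than Dixon's 95% limit allows; chance gives about 2.5 in 50. HAD1 28 stood apart in 3 genes: Amy1 was 5.06 where the next HAD1 array was 8.19, Cyp2j10 was 6.60 where the next was 8.97, and Nat8f3 was 9.78 where the next was 7.10. LAD1 37 stood apart in 3 genes as well: Amy1 was 9.09 against 5.34 on the next array, Cyp2j10 was 9.92 against 7.79, and Slc3a1 was 11.19 against 12.86. Amy1 was 6.67 on P 1 against 5.24 on the next P array, and 4.27 on ANA 16 against 5.25 on the next ANA array. Nat8f3 was 8.34 on AA 19 against 7.21 on the next AA array. These 5 arrays are among those on the other line's side by the rest of their expression. The remaining case is Slc3a1 at 11.57 on HAD1 24 against 13.25 on the next HAD1 array, an array that lay on the side of its own line.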

How the results depend on the processing

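For the 25 differences of 5 genes in 5 pairs, 165 of 170 values under another setting and 460 of 480 with 1 array left out kept their direction and side of the threshold or, in the untested pairs, moved by less than the SD within lines. The exceptions past the threshold were Amy1 in AA and ANA with array weights (-1.32, limma adjusted p = 0.0112) or without the arrays on the other side (-1.63), and Nat8f3 in P and NP without them (-1.18). Turns of sign in the tested pairs were all near 0. Cyp2j10 in sP and sNP was 0.05 without the arrays on the other side and 0.01 with a replicate block. With 1 array left out, Cyp2j10 ran from -0.18 to 0.14 in AA and ANA and from -0.22 to 0.07 in sP and sNP. In sP and sNP, Nat8f3 ran from -0.06 to 0.13 and Pnlip from -0.14 to 0.00. In the untested pairs a turn of sign could count as kept. There Slc3a1 in HAD1 and LAD1 went from 0.03 to -0.23 without the arrays on the other side. With 1 array left out, Pnlip in HAD1 and LAD1 reached 0.01 and Cyp2j10 in HAD2 and LAD2 went from 0.02 to -0.1. The replicate block called 0 probe sets in P and NP and 0 in sP and sNP and changed no other call. Probe sets called between HAD1 and LAD1 (299) numbered 785 with all 10 lines in 1 fit, 700 with array weights, 182 in the brighter 50%, 796 without the arrays on the other side, 159 without the liver-marker array, 180 without LAD1 36 and 4 with LAD1 36 counted as HAD1, where the Amy1, Cyp2j10 and Nat8f3 differences were 2.75, 1.88 and -1.37. With 1 array left out this count ran from 157 to 600; it moved by over 1.5 times without HAD1 21, 23, 24, 25, 28 or 29 or LAD1 32, 33, 34, 35, 36 or 37, and rose without HAD1 28 (600) and LAD1 37 (477). Between HAD2 and LAD2 (1271) it was 831 in the brighter 50%. In the other 3 pairs (0) it was, for P and NP, 168 in 1 fit, 3 with array weights, 1 in the brighter 50%, 502 without the arrays on the other side and 0 to 25 with 1 array left out, the most without NP 9; for AA and ANA 203, 207 with weights, 559 and 0 to 10, the most without ANA 16; and for sP and sNP 2 in 1 fit and 542. The cause of these changes was not tested beyond the number of probe sets or arrays used. No gene had another 1-symbol probe set to try.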
